A study of Mus musculus with 18 samples.

Results

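Genes that have been reported as targets of the miR-25/miR-92 seed family were examined in RNA collected with biotinylated miR-92b from Neuro2A cells. The set holds 9 genes, Fbxw7, Bcl2l11, Cdkn1c, Dkk3, Klf4, Klf2, Itga5, Smad7 and Nlk, which were found by gene symbol and not by their values. They occupy 19 of the 168136 loci in the deposited tables. Of these 19 loci, 7 passed the filter for testing, a normalized count that averaged 10 or more across the 18 samples, 1 each for Bcl2l11, Dkk3, Fbxw7, Itga5, Klf4, Nlk and Smad7.

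Neuro2A (N2A) is a mouse neuroblastoma cell line, labelled WT. A mimic tagged with biotin is brought into the cells, streptavidin beads pull it out of the lysate, and the RNA that comes along is sequenced. There were 6 groups of 3 samples: nuclear and whole cell lysates, each after transfection of the miR-92b mimic at 25 nM, after transfection of a scrambled mimic (Scr) at 25 nM, or from untransfected cells (control). All samples came from 1 cell line, nothing in the labels says that they came from separate cultures, and RNA that did not go through the pulldown was not analysed here, so the p-values measure the spread between these samples and the amount collected cannot be set against the amount in the cells.

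A miRNA guides an Argonaute protein to mRNAs by pairing between its seed, bases 2 to 8 from its 5′ end, and a complementary stretch that often lies in the 3′ UTR of the mRNA. Targets that are paired in this way are usually translated less and degraded faster. The miR-25/miR-92 family is abundant in neural progenitors and in many tumours, and its reported targets include brakes on the cell cycle, on cell survival and on Wnt and TGF-β signalling.

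The family is defined by the seed that its members share. The mature sequences in RefSeq (GRCm38.p6) are shown because the seed, in capitals, is the part through which a miRNA pairs with its targets. The mature sequence of RefSeq stands here for the mimic.

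mmu-miR-92b-3p: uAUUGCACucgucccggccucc
mmu-miR-92a-3p: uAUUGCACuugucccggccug
mmu-miR-25-3p: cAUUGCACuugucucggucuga
mmu-miR-32-5p: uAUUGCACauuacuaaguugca
mmu-miR-363-3p: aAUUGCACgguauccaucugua
mmu-miR-367-3p: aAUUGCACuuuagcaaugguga

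The gene of miR-92b-3p lies on chromosome 3, where the mature sequence spans chr3:89227126-89227147 on the minus strand (GRCm38). The 6 sequences are identical over the seed and differ outside it, so the same matches in an mRNA are open to each of them.

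Matches to the seed were looked for on the sense strand of the 3′ UTRs of protein-coding transcripts of GENCODE release M21 (GRCm38). Transcripts annotated as incomplete at the 3′ end were left out. An 8mer match reads GTGCAATA, a 7mer-m8 match reads GTGCAAT without the last A, and a 7mer-A1 match reads TGCAATA without the first G, so each place is counted under 1 kind. All 9 genes hold at least 1 match, and 7 of them hold an 8mer. Over the 21810 genes with a transcript searched in this way, 12.8% hold a match of any kind and 2.31% hold an 8mer. The 9 genes were chosen as reported targets of this seed family, so their higher share is no finding of these data. Matches of 8 of the 9 genes are shown with the match in capitals and up to 8 bases on either side, because these are the places where the mimic could pair.

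Dkk3 8mer: tggtagatGTGCAATAgaaatggc
Fbxw7 7mer-m8: ccaaccagGTGCAATtattcttt
Fbxw7 8mer: taacttaaGTGCAATAaaatgtgt
Bcl2l11 7mer-m8: atgtctctGTGCAATtgtgttcc
Bcl2l11 8mer: ctgtacctGTGCAATActgctgta
Klf4 7mer-A1: ttcgatgaTGCAATAcacacgta
Klf4 8mer: tttcagatGTGCAATAatttgtac
Nlk 8mer: caaagatgGTGCAATAtctttgtt
Itga5 8mer: tgttgcaaGTGCAATAaaccccac
Klf2 8mer: tcaaaatgGTGCAATAattgactt
Cdkn1c 7mer-m8: tgaaaactGTGCAATgtattgag

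The Dkk3 8mer is at chr7:112118174-112118181 on the minus strand and starts at base 30 of a 3′ UTR of 2194 bases, the nearest to a stop codon in the set. The 2 matches of Fbxw7 are at chr3:84977868-84977874 and chr3:84979171-84979178 on the plus strand, at bases 327 and 1630 of a 3′ UTR of 1657 bases. In Bcl2l11 the 8mer at chr2:128162449-128162456 starts at base 4120 of 4218. Smad7 holds 1 match, a 7mer-m8 at base 1377 of a 3′ UTR of 1570 bases. Matches thus lie at both ends of these 3′ UTRs and show no common position.

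**Figure D1:**
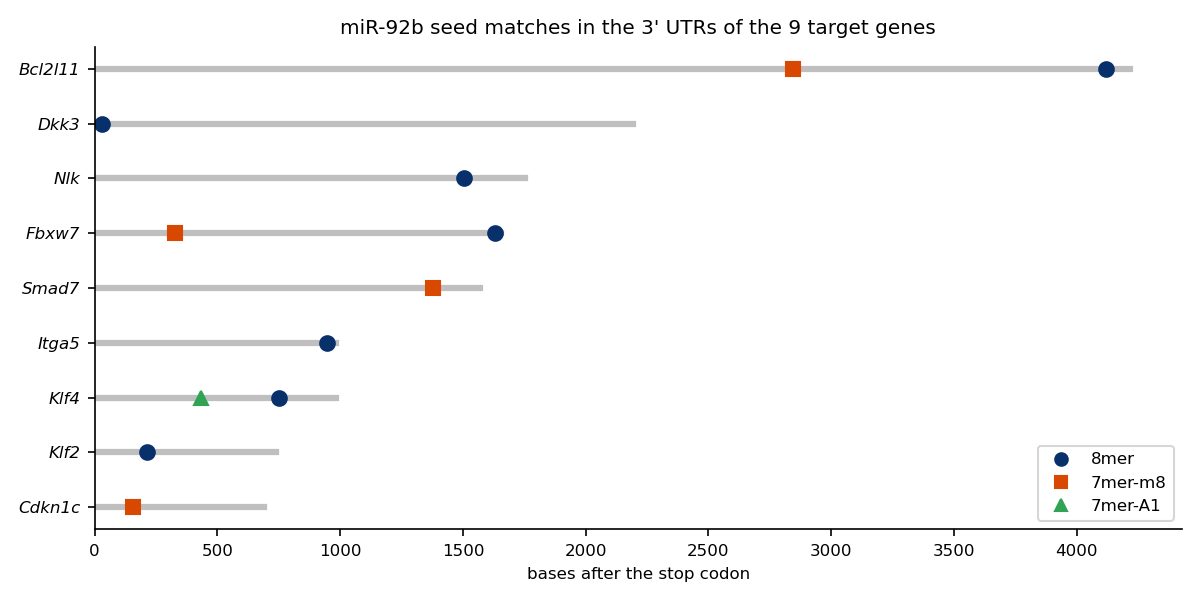
Seed matches of miR-92b-3p in the longest matching 3′ UTR of each of the 9 genes, with the distance after the stop codon in bases on the horizontal axis, grey bars for the 3′ UTR and symbols for the kind of match. The Dkk3 8mer starts at base 30, while the 8mers of Fbxw7, Itga5 and Bcl2l11 start at bases 1630, 947 and 4120, near the ends of 3′ UTRs of 1657, 983 and 4218 bases.

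Loci with a symbol held 3752991 to 22920038 reads in a sample, and 1 read was worth between 0.262 and 1.58 normalized counts. Of 12 markers of sympathetic neuroblastoma, 11 had a tested locus, and their summed normalized count ranged from 8117 to 12870, whereas 2 of 9 markers of glia, fibroblasts, blood and endothelium had one, with a sum over all 9 between 18.6 and 150. Summed counts of the nuclear RNAs Neat1, Malat1 and Miat were 107260 to 139410 in nuclear samples and 30440 to 79081 in whole cell samples, and those of the cytoplasmic mRNAs Gapdh and Eef2 were 2249 to 6853 against 14622 to 55561. Within the nuclear samples the sum of Gapdh and Eef2 was 3023 to 6853 in Scr, 2249 to 3672 in control and 2763 to 2942 in miR-92b, so it was higher in all 3 Scr samples than in all 3 miR-92b samples, and its part in the nuclear differences between miR-92b and Scr was not tested. In nuclear samples, Scr samples 2 and 3 and control sample 3 stood apart, with median correlations with the other samples of the compartment of 0.800, 0.805 and 0.832, against 0.933 to 0.944 in the other 6, and with 14928, 15092 and 15732 named loci with a read, against 19786 to 21421. The whole cell samples had correlations of 0.769 to 0.848 with no such gap, and whole cell miR-92b sample 3 was lowest, had the fewest named loci with a read (14300) and had the highest sum of Gapdh and Eef2. Nuclear differences of the members between miR-92b and Scr are therefore also given without the 3 nuclear samples together, an analysis added after the data were seen. It leaves 1 nuclear Scr sample, which is assumed to vary like the other groups. Whole cell differences of miR-92b described for each member are also given without whole cell miR-92b sample 3. Medians of the wider gene lists and of loci by seed match are given over all samples only.

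In FPKM, a level per transcript length and per mapped fragments, Dkk3 was the most abundant member with a median of 30.3 over the 18 samples. Nlk at 18.3 and Smad7 at 15.4 followed, then Fbxw7 at 5.02, Bcl2l11 at 4.44 and Klf4 at 2.63, and Itga5 was lowest at 0.479. The ranges over samples of all neighbours in this order overlapped. Klf4 had the widest FPKM range for its level, from 0.657 to 14.7, while its normalized counts ran from 16.4 to 105.

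None of the 7 tested genes passed the test in any comparison of miR-92b, Scr and control within a compartment. The test was limma on log2(normalized count + 1) over all 15579 tested loci, with a threshold of 0.05 on the Benjamini-Hochberg adjusted p. In the nuclear samples 0 of 7 were called for miR-92b against Scr, miR-92b against control and Scr against control, where 0% of all loci were called in each. In the whole cell samples 0 of 7 were called in the same comparisons, beside 0.00642%, 0.00642% and 0% of all loci. At an unadjusted p under 0.05 the count of members was also 0 in each of the 6, while 50 to 1515 of all loci passed. edgeR and DESeq2 on the recovered reads also called 0 of 7 in each. Of all tested loci, edgeR called 0 to 1 and DESeq2 0 to 176 in these comparisons, the 176 in whole cell miR-92b against Scr. Leaving out the 3 nuclear samples that stood apart moved the median nuclear difference of miR-92b against Scr over all loci from 0.11 to 0.00066. The differences of Bcl2l11, Dkk3, Klf4 and Smad7 then took the other sign.

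**Figure D2:**
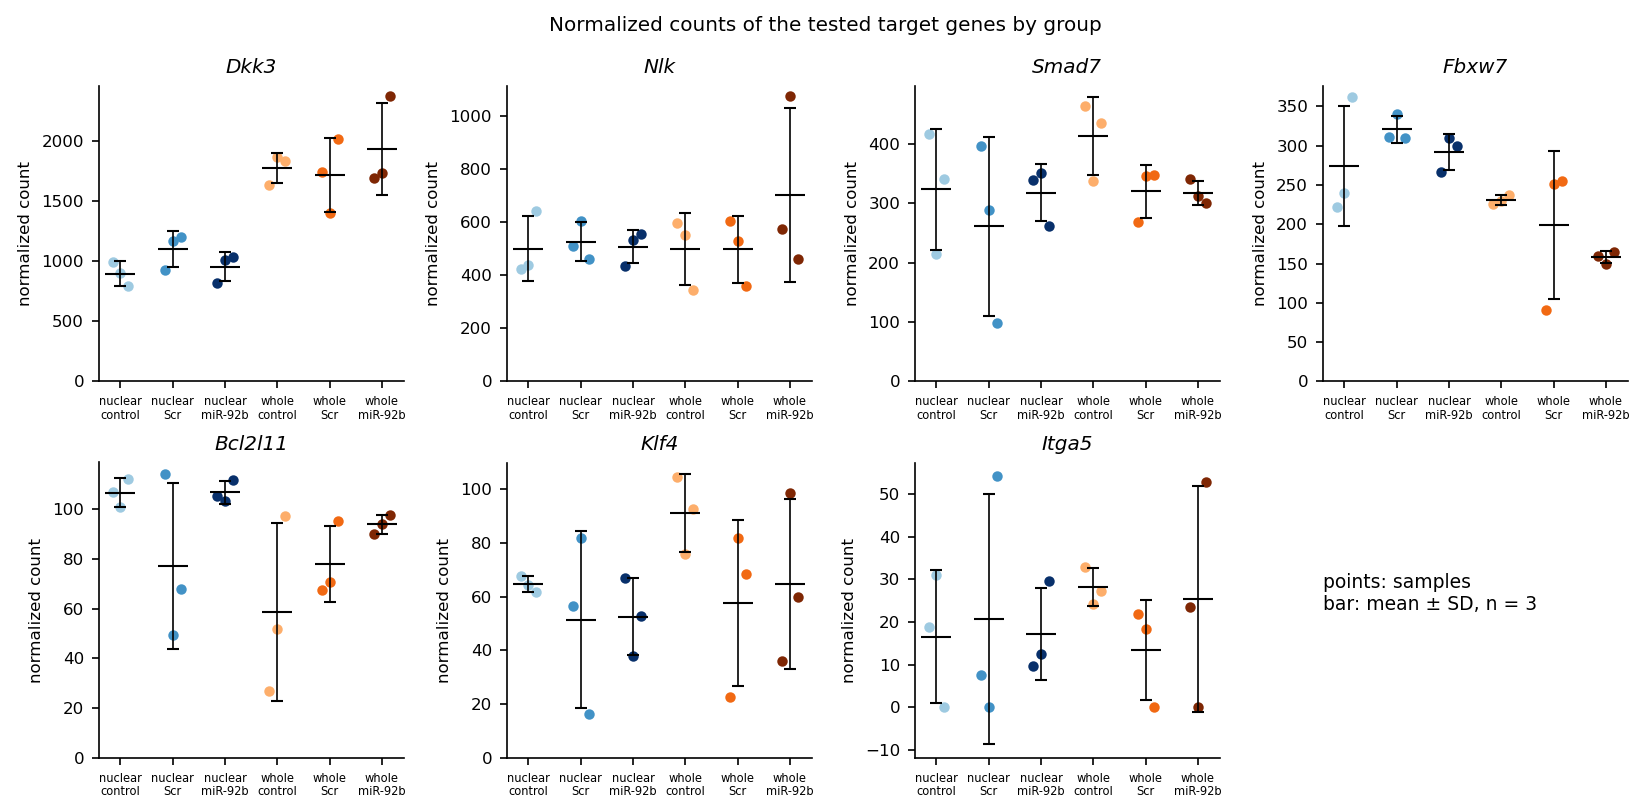
Normalized counts of the 7 tested genes (vertical axes, linear, 1 panel a gene) in the 6 groups; points are samples and bars the mean ± SD of 3 samples. Dkk3 is lower in all 9 nuclear samples (793 to 1199) than in all 9 whole cell samples (1401 to 2377), and the treatments overlap in most panels.

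Fbxw7 is the substrate-recognising F-box protein of an SCF ubiquitin ligase that marks cyclin E, Myc and Notch for degradation. The gene lies at chr3:84815268-84979198 on the plus strand. Its normalized counts in nuclear samples were 266, 309 and 300 in the miR-92b, 311, 341 and 310 in the Scr and 222, 239 and 362 in the control samples. The 3 miR-92b values lay just below the 3 Scr values and inside the control range. In whole cell samples they were 160, 150 and 164 in the miR-92b, 90.3, 251 and 255 in the Scr and 226, 230 and 238 in the control samples. Here the 3 miR-92b values lay below all control values and between the Scr values.

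For Fbxw7 the nuclear difference of miR-92b against Scr was −0.14 on the log2 scale (SE 0.33, 95% interval −0.83 to 0.55, limma adjusted p = 0.99996), and −0.094 without the 3 nuclear samples. Against nuclear control it was 0.12 (SE 0.33, −0.57 to 0.81). In whole cell samples it was −0.18 against Scr (SE 0.33, −0.87 to 0.51), which ran from −0.68 to 0.068 when 1 sample was left out and was −0.21 without miR-92b sample 3. Against whole cell control it was −0.55 (SE 0.33, −1.23 to 0.14, limma adjusted p = 1), and −0.57 without whole cell miR-92b sample 3. Fbxw7 was the 1 member of 7 whose groups did not overlap in nuclear miR-92b against Scr, and again in whole cell miR-92b against control. Over all tested loci, 10.1% and 8.01% did not overlap in these comparisons, and 0 of 7 members did not overlap in nuclear miR-92b against control (7.48% of all loci), in nuclear Scr against control (8.66%) and in whole cell miR-92b against Scr (8.92%).

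Bcl2l11 encodes Bim, a BH3-only protein that triggers apoptosis, at chr2:128126038-128162547. Normalized counts in nuclear samples were 105, 103 and 112 in the miR-92b, 114, 49.5 and 68.1 in the Scr and 107, 100.8 and 112 in the control samples. The miR-92b and control values were close together and 2 Scr values were lower. In whole cell samples they were 90.0, 94.2 and 97.5 in the miR-92b, 67.5, 70.9 and 95.3 in the Scr and 27.0, 51.9 and 97.4 in the control samples. All 3 miR-92b values lay high in the whole cell range, at the level of the highest control sample, which overlapped them. The difference against Scr was 0.55 (SE 0.54, 95% interval −0.58 to 1.67) in nuclear and 0.28 (SE 0.54, −0.84 to 1.40) in whole cell samples, and against control it was 0.85 (SE 0.54, −0.27 to 1.97) in whole cell samples. Without the 3 nuclear samples the nuclear difference against Scr was −0.097, and it ran from 0.27 to 0.87 when 1 sample was left out. Without whole cell miR-92b sample 3 the whole cell differences were 0.26 against Scr and 0.82 against control, and the latter ran from 0.39 to 1.30 when 1 sample was left out. The lowest of these counts rest on 23 reads.

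Dkk3 encodes a secreted glycoprotein of the Dickkopf family, several of which inhibit Wnt signalling, at chr7:112116017-112159057 on the minus strand. Its nuclear normalized counts were 814, 1012 and 1038 in the miR-92b, 926, 1167 and 1199 in the Scr and 995, 900 and 793 in the control samples. Whole cell values were 1690, 1732 and 2377 in the miR-92b, 1738, 1401 and 2015 in the Scr and 1633, 1862 and 1830 in the control samples. The treatments overlapped in both compartments. The miR-92b difference against Scr was −0.20 (SE 0.19, 95% interval −0.59 to 0.19) in nuclear and 0.17 (SE 0.19, −0.22 to 0.55) in whole cell samples, which became 0.0097 without whole cell miR-92b sample 3. The nuclear value was 0.035 without the 3 nuclear samples. The intervals over all samples are the narrowest of the 7 genes. As ratios they run from 0.666 to 1.14 in nuclear and from 0.860 to 1.47 in whole cell samples. They do not cover the choice of measure. With the FPKM table the difference was −0.64 in nuclear samples, below the interval on normalized counts, and 0.30 in whole cell samples. On normalized counts the difference against control was 0.090 (SE 0.19, −0.30 to 0.48) in nuclear samples. In whole cell samples it was 0.11 (SE 0.19, −0.28 to 0.49), and −0.051 without whole cell miR-92b sample 3.

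Nlk, a kinase that phosphorylates LEF1 and TCF factors of the Wnt pathway, lies at chr11:78567168-78697373. Whole cell normalized counts were 574, 1077 and 459.5 in the miR-92b, 605, 528 and 360 in the Scr and 599, 553 and 345 in the control samples. The highest was 1 miR-92b sample and the others overlapped. The difference against Scr was 0.43 (SE 0.29, 95% interval −0.16 to 1.03, limma adjusted p = 0.643), 0.69 without whole cell miR-92b sample 3 and 0.079 without sample 2, which held the highest count. In nuclear samples the values were 436, 533 and 554 in the miR-92b, 510, 605 and 461.5 in the Scr and 423, 437 and 641 in the control samples. The nuclear difference against Scr was −0.049 (SE 0.29, −0.64 to 0.54), and −0.015 without the 3 nuclear samples. Against control the difference was 0.040 (SE 0.29, −0.55 to 0.63) in nuclear and 0.44 (SE 0.29, −0.16 to 1.03) in whole cell samples. The latter was 0.70 without whole cell miR-92b sample 3.

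Smad7, the inhibitory Smad that blocks TGF-β receptor signalling, had nuclear normalized counts of 339, 351 and 262 in the miR-92b, 396, 288 and 98.4 in the Scr and 416, 214 and 340 in the control samples. Whole cell counts were 340, 313 and 300.2 in the miR-92b, 268, 345 and 347 in the Scr and 463, 338 and 436 in the control samples. The miR-92b values fell inside the Scr range in both compartments. The differences against Scr were 0.49 (SE 0.36, 95% interval −0.26 to 1.24) in nuclear and −0.0029 (SE 0.36, −0.75 to 0.74) in whole cell samples. They became −0.33 without the 3 nuclear samples and 0.037 without whole cell miR-92b sample 3. Against control they were 0.014 (SE 0.36, −0.73 to 0.76) in nuclear and −0.36 (SE 0.36, −1.11 to 0.38) in whole cell samples. The latter was −0.32 without whole cell miR-92b sample 3.

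Klf4 and Klf2 encode zinc finger transcription factors of the Krüppel-like family, and Klf4 is used in reprogramming to pluripotency. Klf4, at chr4:55527143-55532466, had nuclear normalized counts of 66.9, 38.0 and 52.7 in the miR-92b, 56.4, 81.7 and 16.4 in the Scr and 67.9, 64.5 and 61.7 in the control samples. In whole cell samples they were 36.0, 98.5 and 59.9 in the miR-92b, 22.8, 82.0 and 68.4 in the Scr and 105, 76.1 and 92.8 in the control samples. The Scr samples held both the lowest and the highest nuclear count, and the groups overlapped in each pair of treatments within the compartments. Differences against Scr were 0.26 (SE 0.72, 95% interval −1.22 to 1.75) in nuclear and 0.24 (SE 0.72, −1.25 to 1.72) in whole cell samples. The nuclear value was −0.14 without the 3 nuclear samples, and the whole cell value was again 0.24 without miR-92b sample 3 and was −0.12 without sample 2. Against control the differences were −0.33 (SE 0.72, −1.82 to 1.16) in nuclear and −0.59 (SE 0.72, −2.08 to 0.90) in whole cell samples, and the latter was also −0.59 without miR-92b sample 3.

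Itga5, at chr15:103344286-103366763, encodes the α5 subunit of the fibronectin receptor and had 0 to 83 reads a sample, with reads in 14 of the 18. Its nuclear normalized counts were 9.56, 12.5 and 29.6 in the miR-92b, 7.62, 0 and 54.2 in the Scr and 18.8, 30.9 and 0 in the control samples. Whole cell counts were 23.4, 0 and 52.9 in the miR-92b, 21.9, 18.2 and 0 in the Scr and 32.9, 24.2 and 27.3 in the control samples. A count of 0 occurred in 4 of the 6 groups and the intervals were wide. The difference of miR-92b against Scr was 1.06 (SE 1.72, 95% interval −2.49 to 4.62) in nuclear and 0.53 (SE 1.72, −3.03 to 4.08) in whole cell samples. These became 0.92 without the 3 nuclear samples and −0.62 without whole cell miR-92b sample 3. Against control it was 0.93 (SE 1.72, −2.62 to 4.48) in nuclear and −1.40 (SE 1.72, −4.95 to 2.15) in whole cell samples. The latter was −2.55 without whole cell miR-92b sample 3, and the former −0.62 without the 3 nuclear samples. Itga5 was the 1 member of 7 whose groups did not overlap in whole cell Scr against control, where 13.5% of all loci did not.

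**Figure D3:**
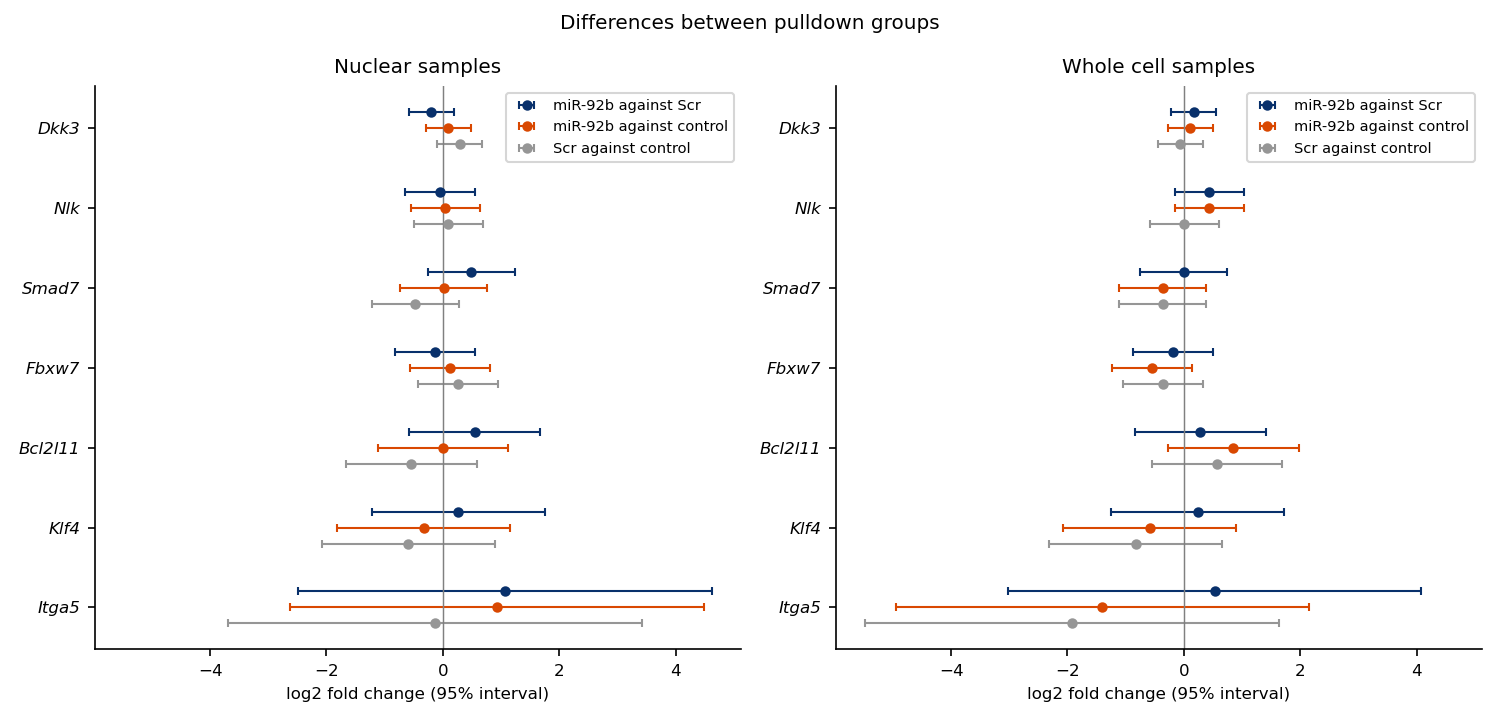
Log2 fold changes on the log2(normalized count + 1) scale (horizontal axis) with 95% intervals for the 7 tested genes, for miR-92b against Scr, miR-92b against control and Scr against control in nuclear (left) and whole cell (right) samples. Every interval includes 0, from the narrowest, Dkk3, to the widest, Itga5.

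The median log2 fold change of the 7 members was 0.26 for nuclear miR-92b against Scr, beside 0.11 over all tested loci, with 4 of 7 above 0. Without the 3 nuclear samples that stood apart, Dkk3 and Itga5 were the only members above 0, and the median over all loci was 0.00066. For whole cell miR-92b against Scr the members' median was 0.24 beside −0.014, with 5 of 7 above 0. Without whole cell miR-92b sample 3 the middle value of the 7 was 0.037 (Smad7), beside a median of 0.024 over all loci. Against control, which shares the miR-92b samples with these comparisons, the medians were 0.040 beside 0.029 in nuclear and −0.36 beside −0.098 in whole cell samples. The difference between the nuclear and the whole cell effect of miR-92b against Scr was called for 0 of 7 members and 0.00642% of all loci, and the members' adjusted p ran from 0.738 to 0.996.

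Cdkn1c, which encodes the cyclin-dependent kinase inhibitor p57, and Klf2 were below the level tested. Cdkn1c had 69 reads (44.0 normalized counts) in whole cell miR-92b sample 3, the whole cell sample with the lowest median correlation with its compartment. It had 6 reads (4.68 normalized counts) in 1 whole cell control sample and 0 reads in the other 16. A count of 0 allows up to 3 reads, which is 0.786 to 4.75 normalized counts depending on the sample. The reads of Cdkn1c thus lay almost wholly in 1 of 3 whole cell miR-92b samples. Klf2 had 2 loci with 12 reads each over all samples, the first in 3 samples and the second in 1. The other 9 loci that carry the Fbxw7 symbol had 10 to 77 reads in all, in 1 or 2 samples each.

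Nuclear and whole cell pulldowns differed for 2 of the 7 members. Averaged over the 3 treatments, Dkk3 was lower in nuclear samples, with a difference of −0.88 on the log2 scale (SE 0.11, 95% interval −1.10 to −0.66, limma adjusted p = 1.32e-06), a ratio of 0.544. Fbxw7 was higher by 0.64 (SE 0.19, 0.24 to 1.04, limma adjusted p = 0.0139), a ratio of 1.56. In this comparison 31% of all tested loci were called, 2377 higher and 2454 lower, and the share of members called, 2 of 7, was no higher. Dkk3 was also the 1 member whose 9 nuclear and 9 whole cell samples did not overlap, beside 7.32% of all loci. The Fbxw7 call was lost without the 3 nuclear samples that stood apart (0.55, limma adjusted p = 0.0890) and with the FPKM table (0.46, limma adjusted p = 0.228). Dkk3 was −0.93 without the 3 nuclear samples. With the FPKM table it was −1.60, so the size of the Dkk3 difference depends on the measure.

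The Dkk3 difference was present within each treatment, in comparisons that were added after the data were seen. It was −0.99 in control (limma adjusted p = 0.000993), −0.64 in Scr (0.0464) and −1.01 in miR-92b (0.000892; −0.85 without whole cell miR-92b sample 3), where 9.85%, 5.17% and 13.3% of all loci were called and Dkk3 was the 1 member of 7 called. The call in Scr was kept in 12 of 32 alternative analyses, with limma adjusted p up to 0.163, and leaving out any 1 of 13 samples ended it. With the FPKM table the Dkk3 differences were −1.94 in control, −0.96 in Scr and −1.90 in miR-92b. For Fbxw7 the values on normalized counts were 0.21 in control (limma adjusted p = 0.770), 0.83 in Scr (0.142) and 0.88 in miR-92b (0.0827), none of them called. Groups did not overlap for 3 of 7 members in control (Bcl2l11 higher, Dkk3 and Klf4 lower), 2 of 7 in Scr (Fbxw7 higher, Dkk3 lower) and 3 of 7 in miR-92b (Bcl2l11 and Fbxw7 higher, Dkk3 lower), beside 38.1%, 22.3% and 36.2% of all loci.

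**Figure D4:**
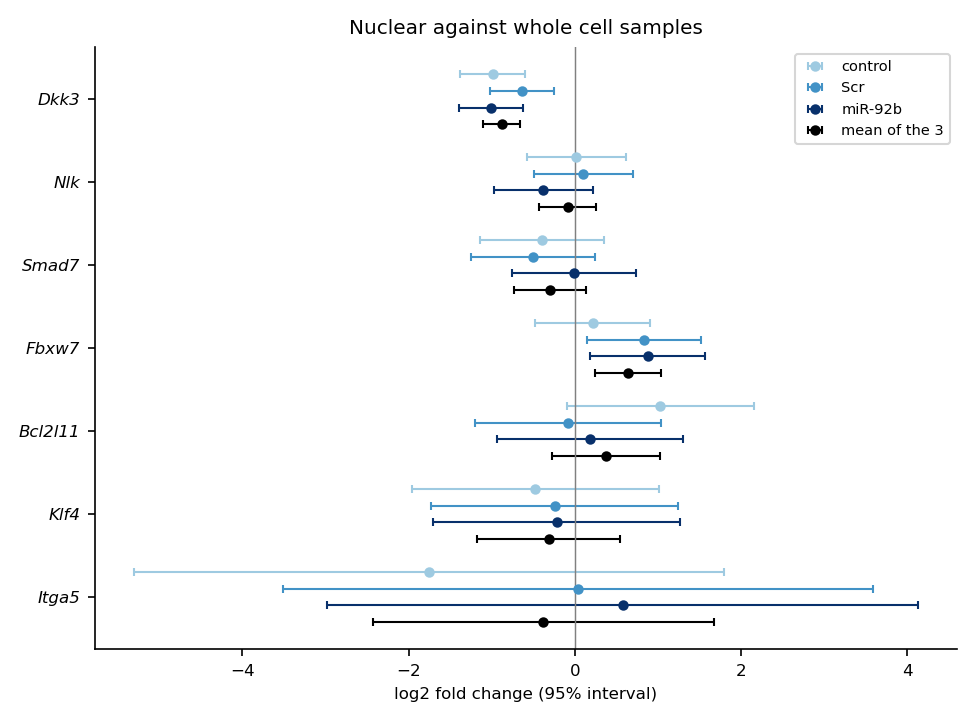
Log2 fold changes of nuclear against whole cell samples (horizontal axis, log2(normalized count + 1) scale) with 95% intervals for the 7 tested genes, within control, Scr and miR-92b and as their mean. All 4 intervals of Dkk3 lie below 0, and those of Fbxw7 lie above 0 except in control (0.21, −0.48 to 0.90).

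A wider list of reported targets of the seed family was described in the same way. Of 18 such genes 17 were tested, 15 of which hold a match and 11 an 8mer. In the comparisons of miR-92b, Scr and control, limma, edgeR and DESeq2 each called 0 of 17, and 0 had an unadjusted p under 0.05. Of all 15579 tested loci, limma called 0% to 0.00642% in these comparisons, and 50 to 1515 had an unadjusted p under 0.05. edgeR called 0 to 1 of all these loci and DESeq2 0 to 176. The median of the 17 genes for miR-92b against Scr was −0.042 in nuclear samples, beside 0.11 over all tested loci, with 7 of 17 above 0. In whole cell samples it was 0.094 beside −0.014, with 11 of 17 above 0. Among the most abundant of them, Cpeb2 and Rab14 each hold an 8mer. Cpeb2, a cytoplasmic polyadenylation factor whose locus is shared with other genes, had −0.042 (SE 0.16) in nuclear and −0.12 (SE 0.16) in whole cell samples. The small GTPase gene Rab14 had 0.10 (SE 0.17) and 0.094 (SE 0.17).

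Between compartments, 7 of these 17 genes were called, 2 higher and 5 lower in nuclear samples, beside 31% of all loci with 2377 higher and 2454 lower. Mcu, the mitochondrial calcium uniporter, was higher by 0.59 (limma adjusted p = 0.00204) and Cpeb2 by 0.59 (limma adjusted p = 2.51e-05). Lower were the arginine methyltransferase gene Prmt5 (−1.05, limma adjusted p = 0.0310), the transcription factor gene Mef2d (−0.58, 0.00131) and the acetyltransferase gene Kat2b (−0.56, 0.0151).

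Partners and relatives of the members gave 18 tested genes of 22, of which 6 hold a match. Among treatments limma, edgeR and DESeq2 each called 0 of 18, with 0 to 3 at an unadjusted p under 0.05. Of all 15579 tested loci, limma called 0% to 0.00642% there, with 50 to 1515 at that unadjusted p, while edgeR called 0 to 1 and DESeq2 0 to 176. The medians of the 18 genes for miR-92b against Scr were 0.17 in nuclear and 0.063 in whole cell samples, beside 0.11 and −0.014 over all tested loci. Itgb1, the β1 integrin that pairs with α5, had 0.013 (SE 0.23) in nuclear and 0.35 (SE 0.23) in whole cell samples, Skp1a, an SCF partner of Fbxw7, 0.20 (SE 0.21) and −0.070 (SE 0.21), and Klf6 0.35 (SE 0.23) and −0.024 (SE 0.23). In nuclear against whole cell samples 6 of 18 were called, all lower. Of all loci 31% were called in both directions together, 2377 higher and 2454 lower. The 6 included the SCF genes Cul1 (−1.04, limma adjusted p = 0.0241), Rbx1 (−0.69, 0.000650) and Skp1a (−0.49, 0.00358). They also included the cell cycle inhibitors Cdkn1a (−1.66, limma adjusted p = 0.0105) and Cdkn1b (−0.47, 0.0345). Fbxw7 itself was higher, in a call that was not kept in every alternative.

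All tested loci of 1 gene with an annotated 3′ UTR were then described by their best match. The 311 loci with an 8mer had a median log2 fold change for miR-92b against Scr of 0.044 in nuclear samples (quartiles −0.13 and 0.31) and 0.023 in whole cell samples (quartiles −0.25 and 0.30). The 8973 loci without a match had 0.095 (quartiles −0.18 and 0.59) and 0.053 (quartiles −0.33 and 0.43). With limma 0 of the 311 loci with an 8mer were called in either comparison, while 10 in nuclear (3.22%) and 22 in whole cell samples (7.07%) had an unadjusted p under 0.05, beside 435 (4.85%) and 762 (8.49%) of the loci without a match. edgeR called 0 and 0 of the loci with an 8mer and DESeq2 called 0 and 1, beside 0 and 0 and 1 and 78 of those without a match. Whether the kinds of loci differ was not tested. These medians were not recomputed without the 3 nuclear samples that stood apart. Leaving those out moved the nuclear median over all tested loci from 0.11 to 0.00066.

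**Figure D5:**
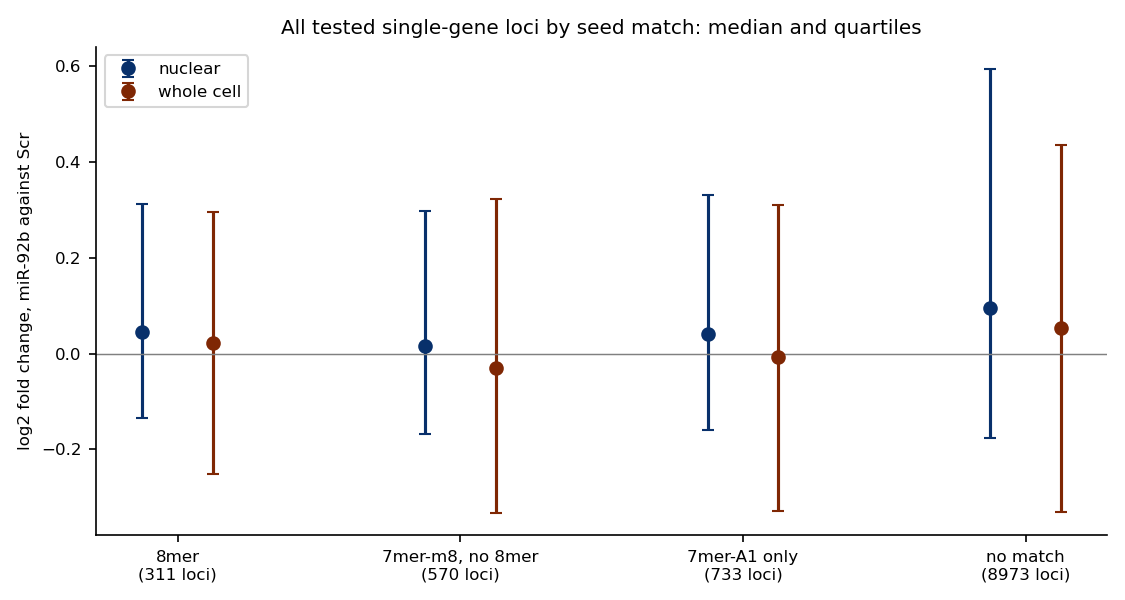
Median log2 fold change of miR-92b against Scr (vertical axis) with quartiles for all tested single-gene loci, by their best seed match, in nuclear and whole cell samples. The medians are 0.044 and 0.023 for the 311 loci with an 8mer and 0.095 and 0.053 for the 8973 loci without a match, and all quartile ranges include 0.

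Correlations on log2(normalized count + 1) over the 18 samples, which differ in compartment and depth, are given as a description. The highest Pearson correlation between members was 0.68, for Klf4 and Smad7, and the lowest was −0.61, for Dkk3 and Fbxw7. Among all single-gene loci the one most like Dkk3 over the 18 samples was Zc3h7b (0.98), the one most like Fbxw7 was Zfp397 (0.92) and the one most like Smad7 was Cbs (0.90). For Klf4 it was Ccdc124 (0.89), for Nlk Polr3f (0.72), for Bcl2l11 Gm43807 (0.84) and for Itga5 Gm15927 (0.92).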

How the data were processed

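Directional libraries were made from RNA held by oligo-dT beads. According to the methods and processing notes, adaptors were removed by Trimmomatic 0.30, reads were placed on GRCm38 (mm10) by TopHat2 and loci came from Cufflinks, with versions and annotation release not given in the sources used. In the deposited table of normalized counts each value is a signal, the fragments of a locus over 1 factor per sample, and the deposited FPKM values are relative to transcript length and mapped fragments. Tables of the authors' own comparisons hold fold changes and p-values and were not used. All 635205 values above 0 (100.0%) were whole multiples of 1 read (within 0.02 reads, or 2e-05 of the value for high counts), so reads were recovered. The 115957 loci without a symbol, with 4.51% to 15.3% of the reads, were left out.

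limma 3.58.1 (R 4.3.3) with a variance trend was run on log2(normalized count + 1) in 1 model of 6 groups, two-sided, over 15579 loci with a symbol and a mean of at least 10. Fold changes of low genes depend on the pseudocount on this scale: it shrinks them in general, but a count of 0 in 1 sample of a group can enlarge them, as for Itga5. Alternatives were pseudocounts of 0.5 and 8, other filters, FPKM with a pseudocount of 0.1, rescaling to the same median, quantile normalization, the compared groups alone, sample weights, the sample number as a block, edgeR 4.0.16 and DESeq2 1.42.0 on recovered reads, and leaving out each sample or, added after the data were seen, 3 nuclear samples together. The script was tested on simulated data. The members, lists and tests were chosen with earlier results of these data known. The named genes are the members, from each list up to 5 called genes by absolute log2 fold change or else the 3 most abundant, and the single-gene locus most correlated with each member; values of 1 gene that this rule names are not reported here. Every per-sample column was mapped to its sample. Counting limits cover counting error only.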

Additional observations from a re-analysis of the deposited data

How the results depend on the processing

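The 7 members' differences in 11 comparisons were recomputed under up to 32 alternatives, 2452 values in all. Itga5, which is below a mean of 50 and once had no adjusted p with DESeq2, had 30 or 31. Direction and side of the threshold were kept by 2287, 22 lost a call, 3 gained one and 140 had the other sign, 0 of the latter called. Many alternatives leave the difference unchanged by construction and can only move its adjusted p. These are the filters, the block, the compared groups alone and leaving out a sample of a group not compared. The 2287 are therefore no measure of how stable the differences are. No member was called among miR-92b, Scr and control in any alternative, although the number of all loci called there for miR-92b against Scr reached 49 (nuclear) and 176 (whole cell). The whole cell maximum was reached by DESeq2, beside 1 by limma and 1 by edgeR. The cause of the changes below was not tested. The 3 comparisons of compartments within a treatment were added after the data were seen.

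In nuclear against whole cell samples averaged over treatments, 2 members were called, and 1 with the FPKM table or without the 3 nuclear samples that stood apart. Within Scr the count was 1, and 0 without those 3 samples, with the compared groups alone, edgeR, the FPKM table, a mean of at least 1, no filter or rescaling to the same median, and 0 to 1 when a sample was left out. The 13 samples whose omission ended that call were nuclear control 1 and 2, all 3 of nuclear miR-92b, of nuclear Scr and of whole cell control, and whole cell Scr 1 and 3. Within miR-92b it was 1, and 2 with quantile normalization or sample weights, and 1 to 2 when a sample was left out, where Fbxw7 was called without whole cell Scr sample 1 (0.88, limma adjusted p = 0.0244).

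Deviations from group means of same-numbered samples correlated between −0.044 and 0.11, above 0.1 in 1 of 45 pairs. These values cannot decide whether same-numbered samples came from the same experiment, which the labels do not say. Each group holds the same numbers, so a block for the number cannot change a log2 fold change and can only move its p-value. With this block 0 of the 77 member results crossed the threshold. In nuclear against whole cell samples averaged over treatments, 4846 of all loci were called beside 4831.

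Uncalled differences with the other sign were as follows, on the log2 scale. For nuclear miR-92b against Scr, Itga5 had −0.27 with DESeq2, −0.20 with edgeR and −0.20 with quantile normalization, and Nlk 0.22 with FPKM and 0.021 with sample weights. For nuclear miR-92b against control, Bcl2l11 had −0.029, Nlk −0.049 and Smad7 −0.041 with FPKM, Smad7 −0.025 with DESeq2 and −0.0065 with edgeR, and Itga5 −0.35 with quantile normalization and −0.18 with sample weights. For nuclear Scr against control, Itga5 had 0.33 with DESeq2 and 0.25 with edgeR, and Nlk −0.27 with FPKM. For whole cell miR-92b against Scr, Klf4 had −0.28 with FPKM and −0.24 with sample weights, and Smad7 0.0018 with sample weights. For whole cell miR-92b against control, Dkk3 had −0.025 with sample weights. For whole cell Scr against control, Nlk had −0.27 and Smad7 0.21 with FPKM, and Nlk −0.014 with edgeR. For the nuclear minus the whole cell effect, Itga5 had −1.21 with DESeq2, −1.13 with edgeR, −0.15 with FPKM, −0.16 with a pseudocount of 8 and −0.91 with quantile normalization, and Klf4 −0.15, −0.056, −0.0052 and −0.041 with DESeq2, edgeR, a pseudocount of 8 and quantile normalization. For nuclear against whole cell samples averaged over treatments, Itga5 had 0.18 with sample weights, and Nlk 0.031 with quantile normalization and 0.0012 with the same median. Within control, Fbxw7 had −0.071 and Klf4 0.19 with FPKM, and Nlk −0.066 with sample weights. Within Scr, Bcl2l11 had 0.26 with FPKM and 0.18 with sample weights, and Itga5 −0.19 with quantile normalization. Within miR-92b, Itga5 had −0.55 with DESeq2, −0.50 with edgeR, −0.13 with FPKM, −0.060 with a pseudocount of 8 and −1.11 with quantile normalization, and Smad7 0.013, 0.067, 0.16 and 0.079 with DESeq2, edgeR, quantile normalization and the same median.

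Leaving out nuclear control sample 3 and nuclear Scr samples 2 and 3 together was added after the data were seen. For nuclear miR-92b against Scr it gave −0.097 for Bcl2l11, 0.035 for Dkk3, −0.14 for Klf4 and −0.33 for Smad7, for nuclear miR-92b against control −0.62 for Itga5, and for nuclear Scr against control 0.14 for Bcl2l11, −0.030 for Dkk3 and 0.41 for Smad7. For the nuclear minus the whole cell effect it gave −0.38 for Bcl2l11, −0.37 for Klf4 and −0.33 for Smad7. For nuclear against whole cell samples it gave 0.18 for Itga5 averaged over treatments, −0.0026 for Fbxw7 and −0.17 for Nlk within control, and 0.56 for Bcl2l11, 0.15 for Klf4 and 0.32 for Smad7 within Scr.

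Leaving out 1 sample at a time gave the other sign at least once in the following. For nuclear miR-92b against Scr, Itga5 ran from −0.42 to 2.47, Klf4 from −0.40 to 0.73, Nlk from −0.14 to 0.057 and Smad7 from −0.10 to 0.90. For nuclear miR-92b against control, Bcl2l11 ran from −0.037 to 0.040, Fbxw7 from −0.016 to 0.33, Itga5 from −0.62 to 1.88, Nlk from −0.067 to 0.23 and Smad7 from −0.26 to 0.22. For nuclear Scr against control, Itga5 ran from −1.69 to 1.35, Klf4 from −1.06 to 0.069, Nlk from −0.018 to 0.28 and Smad7 from −0.88 to 0.12. For whole cell miR-92b against Scr, Fbxw7 ran from −0.68 to 0.068, Itga5 from −0.94 to 2.25, Klf4 from −0.32 to 0.59 and Smad7 from −0.12 to 0.060. For whole cell miR-92b against control, Dkk3 ran from −0.051 to 0.19 and Itga5 from −2.55 to 0.33. For whole cell Scr against control, Dkk3 ran from −0.18 to 0.078, Fbxw7 from −0.61 to 0.13 and Nlk from −0.24 to 0.22. For the nuclear minus the whole cell effect, Bcl2l11 ran from −0.011 to 0.58, Fbxw7 from −0.20 to 0.54, Itga5 from −1.19 to 2.002, Klf4 from −0.64 to 0.58 and Smad7 from −0.098 to 0.90. For nuclear against whole cell averaged over treatments, Itga5 ran from −0.96 to 0.14 and Nlk from −0.17 to 0.032. Within control, Fbxw7 ran from −0.0026 to 0.35 and Nlk from −0.23 to 0.17. Within Scr, Bcl2l11 ran from −0.40 to 0.19, Itga5 from −1.43 to 1.52, Klf4 from −0.80 to 0.42, Nlk from −0.11 to 0.26 and Smad7 from −0.91 to 0.087. Within miR-92b, Itga5 ran from −1.15 to 1.72, Klf4 from −0.58 to 0.14 and Smad7 from −0.089 to 0.12.

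Depth limits Itga5, Cdkn1c and Klf2 most, and groups of 3 samples leave wide intervals. For each member but Dkk3, at least 1 comparison of treatments had an interval that spans 0 and a change of over 2-fold. These intervals are on normalized counts. For Dkk3 in nuclear miR-92b against Scr, the FPKM table gave −0.64, which lay below its interval.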
